A study of Arabidopsis thaliana with 10 samples.

Results

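Broad H3K27ac domains are peaks of acetylated lysine 27 on histone H3 that span at least 2000 bp, as the width between the start and the end of the deposited peak. They were taken from 4 peak lists of Arabidopsis thaliana inflorescence meristem and floral tissue. With the rRNA gene loci on chromosomes 2 and 3 left out, they numbered 403 of the 38526 peaks that remained of 38540. Peaks of different lists that overlapped by at least 1 bp were joined into 213 loci, which covered 527.6 kb. The peaks were chosen by their measured width, so their widths, fold enrichments and p-values are given as a description with no test.

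Tissue came from plants carrying pAP1:AP1-GR, the flower regulator AP1 fused to a steroid receptor domain under its own promoter. The plants were of the Ler background with both ap1-1 and cal-1. Every sample carried these alleles and this transgene, and dexamethasone, the agent that lets the fusion protein enter the nucleus, starts synchronous flower formation. ChIP-seq with an antibody against H3K27ac was performed on day 0 (S0) and on days 2 (S2), 4 (S4) and 8 (S8) of induction. S0 is the inflorescence meristem collected before the first dexamethasone treatment, so it was untreated, while S2, S4 and S8 were treated. Each stage had 2 replicates, and 2 input libraries, whose labels give stages 2 and 4, were combined as the control. Each list holds peaks called on the pooled replicates, so a stage has 1 value per peak, no replicate spread can be given, and differences between stages were not tested. The lists give no depth of the libraries, and reads of the transgene were not separated from those of the endogenous AP1 gene. Of 91 floral regulator genes looked up, 49 carried the summit of a peak at 1 or more stages, beside 12033 of all 27444 protein-coding genes.

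Acetylation of H3K27 is written by histone acetyltransferases and removed by histone deacetylases, and it marks promoters of active genes and, in animals, active enhancers. In Arabidopsis the mark sits mostly over the beginning of transcribed genes, just past the transcription start site (TSS). In mammals, stretches of acetylated or methylated chromatin that are much wider than usual are known for lying on genes of cell identity.

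The base sequence under the summit, the position of strongest enrichment, is shown for 5 of the domains described below, on meristem receptors, auxin response factors and the organ shape gene QKY. Each run is 151 bases of RefSeq TAIR10.1 centred on the summit of the widest peak, 5′ to 3′ along the strand of the gene, and no base lies in an untranslated region of an annotated transcript. Capitals mark matches to 5 motifs searched on both strands. These were the words CCGGAG and AATTTC, the G-box with the letters CACGTG, the repeat GAGAGA, and the telo-box, whose letters are AAACCCTA.
BAM1, chr5:26282061-26282211, coding exon 1: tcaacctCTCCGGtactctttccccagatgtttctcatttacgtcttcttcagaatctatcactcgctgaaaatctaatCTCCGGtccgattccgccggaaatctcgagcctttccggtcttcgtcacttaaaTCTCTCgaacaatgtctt
CLV1, chr1:28464941-28465091, coding exon 1: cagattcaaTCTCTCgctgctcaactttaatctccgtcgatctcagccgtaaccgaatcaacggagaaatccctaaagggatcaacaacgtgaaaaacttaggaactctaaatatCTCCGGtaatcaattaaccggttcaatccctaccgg
QKY, chr1:28076464-28076614, coding exon 1: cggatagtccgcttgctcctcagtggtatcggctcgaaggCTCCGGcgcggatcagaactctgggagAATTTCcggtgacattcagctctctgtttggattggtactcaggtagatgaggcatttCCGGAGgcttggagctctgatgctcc
ARF6, chr1:10689729-10689879, coding exon 3 and the intron after it: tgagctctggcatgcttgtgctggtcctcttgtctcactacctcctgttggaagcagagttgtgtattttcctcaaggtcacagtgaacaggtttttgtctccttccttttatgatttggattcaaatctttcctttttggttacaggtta
MP, chr1:6887637-6887787, coding exon 2 and the intron after it: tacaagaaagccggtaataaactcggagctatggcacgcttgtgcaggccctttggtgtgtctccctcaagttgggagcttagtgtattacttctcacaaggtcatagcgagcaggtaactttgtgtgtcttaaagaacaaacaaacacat

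The windows of BAM1, CLV1 and QKY were coding in all 151 bases, and those of ARF6 and MP in 91 and 115 bases. CCGGAG or its reverse complement occurred in the windows of BAM1, CLV1 and QKY and in neither auxin response factor. The word was chosen after the data were seen, as the 6-letter word of 2080 whose share of windows was raised most among broad domains, and AATTTC as the one lowered most. In 301-base windows, CCGGAG occurred in 40.7% of 369 broad peaks outside repeated sequence (95% Wilson interval 35.8 to 45.7%) and in 22.2% of 38123 narrower peaks (21.7 to 22.6%). AATTTC occurred in 18.4% of the broad windows and 35.0% of the others. The median GC content of a window was 47.5% for broad and 42.5% for narrower peaks, and 56.9% of broad windows lay wholly in coding sequence against 25.6% of the others. Among windows wholly in coding sequence, CCGGAG was found in 56.2% of 210 broad windows (49.4 to 62.7%) and 35.9% of 9770 others (35.0 to 36.9%), and the median GC content was 50.2% against 48.8%. The G-box was in 5.69% of all broad and 2.82% of all narrower windows, but in 7.14 and 6.0% of those wholly in coding sequence. GAGAGA was in 49.6 and 44.2% and the telo-box in 5.96 and 13.2% of broad and narrower windows. Within coding sequence, GAGAGA was in 49.0 and 43.9% and the telo-box in 4.76% (2.61 to 8.54%) and 7.0% (6.51 to 7.52%). Windows of 1 locus at several stages overlap, and these intervals, like all others here, cover counting error only.

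Broad domains were rare at every stage and least frequent at S2. The S0 list held 134 among 11581 peaks (1.16%, 95% Wilson interval 0.978 to 1.37%), the S2 list 64 among 8600 (0.744%, 0.583 to 0.949%), the S4 list 94 among 9112 (1.03%, 0.844 to 1.26%) and the S8 list 111 among 9233 (1.2%, 0.999 to 1.45%). The median width of all peaks was 749, 715, 768 and 761 bp at S0, S2, S4 and S8. Broad peaks held 3.57, 2.24, 2.99 and 3.43% of the bases under peaks at these stages. The limit did not fall in a gap of the distribution, since the narrowest peaks inside it spanned 2000, 2009, 2016 and 2007 bp and the widest outside it 1998, 1999, 1997 and 1997 bp. Only 38, 12, 29 and 31 peaks reached 2500 bp. Every broad peak came from a peak in which the caller had separated several summits, as had 42.1 to 61.2% of narrower peaks, depending on the list.

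**Figure D1:**
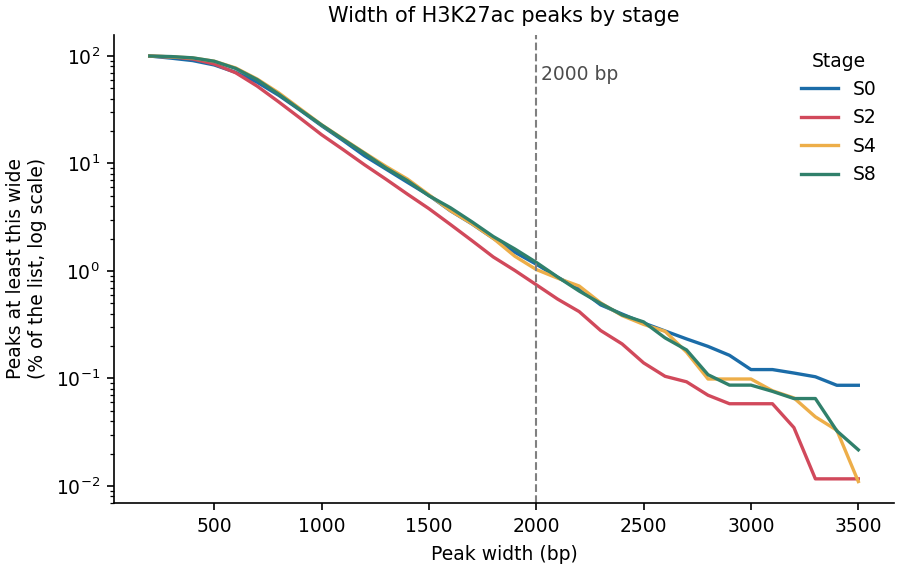
Share of peaks at least as wide as the value on the x axis (bp), in percent of each list on a log scale, with 1 line per stage. The lines pass 2000 bp (dashed) at about 1% and show no step there, and the S2 line lies below the other 3 at that width.

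The broad peaks on repeated sequence stood apart from the rest and are given first. A locus was called repeated where at least 50% of its 32-base words have a further copy in the nuclear or organelle genomes, and 14 of the 213 loci were. They were longer than the others, with a median length of 4062 bp (longest 6398 bp) against 2252 bp (longest 4916 bp) for the remaining 199. All 14 were broad at S0, 8 at S4, 10 at S8 and 1 at S2, and 4 had no peak at S2. The median width of their widest peak was 4062, 493, 2182 and 2218 bp at S0, S2, S4 and S8. The repeated locus on chromosome 4 from 3950321 to 3956134, over an annotated pseudogene, spanned 5814 bp at S0, 5491 bp at S4 and 5760 bp at S8 but 817 bp at S2. On chromosome 5 from 11701730 to 11705924, a locus over another pseudogene spanned 4195, 3018 and 2123 bp at S0, S4 and S8 and had no peak at S2. The repeated locus on chromosome 3 from 13588599 to 13592762, which overlapped no annotated gene, was the 1 that stayed broad at S2, with 4164, 2807, 2717 and 2726 bp in stage order (S0, S2, S4, S8). Among narrower peaks, 1.78, 0.305, 1.54 and 1.53% lay on repeated sequence at S0, S2, S4 and S8, so the S2 list was low in such peaks of any width. AT5G25754, whose domain spanned 2557 bp at S0 and 1377 to 1883 bp later, shares 52.3% of its words with other places in the genome, and reads of near-identical copies cannot be told apart there.

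Most loci held a peak throughout, whose width passed the limit at some stages only. Of the 213 loci, 202 had a peak at all 4 stages, but 28 were broad at all 4, 33 at 3, 39 at 2 and 113 at 1. Without repeated sequence the counts were 27, 26, 37 and 109 of 199. The most frequent patterns in all 213 were broad at S0 only (50 loci), at S8 only (39), at all 4 stages (28), at S0, S4 and S8 (21) and at S4 only (17), while 7 loci were broad at S2 only. Where a locus was not broad, it mostly held 1 narrower peak: in stage order, 49 of 79, 99 of 149, 96 of 119 and 73 of 103 loci did. It was split into several peaks in 30, 42, 21 and 28 loci, and it had no peak in 0, 8, 2 and 2. Where a locus held several peaks at a stage, the width given below is that of the widest. The widest peak on loci that were not broad had a median of 1541, 1412, 1574 and 1586 bp, and 98 loci held a peak of at least 1500 bp at all 4 stages. With the number of peaks set equal, at the 64 widest of each list, 18 of 137 loci were in the set at all 4 stages. Joining peaks of a list that lay within 500 bp of each other, as the study did before counting its regions, gave 480 broad loci, 75 of them broad at all 4 stages.

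Loci broad at all 4 stages included the genes of 7 leucine-rich repeat proteins or receptor kinases, of 3 subtilases, of the auxin response factors ARF6 and ARF2, of the DELLA repressor of gibberellin responses RGA1 and of the jasmonate-response factor MYC3. Their widths were similar from stage to stage: the widest was a median of 1.09 times the narrowest in the 27 outside repeated sequence, with a range of 1.02 to 2.01. BAM1, a receptor kinase related to CLAVATA1 that acts in meristems, had the widest domain by mean width, with 3316, 3294, 3413 and 3323 bp in stage order. Its domain began 33 to 98 bp past the TSS at every stage and ended 3387 to 3445 bp past it, within a gene of 3772 bp. The fold enrichment at its summit, the pileup over the control as the authors' caller gave it, was 6.33, 5.39, 4.10 and 4.87, at the 89.8th to 97.4th percentile of each list.

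ARF6, an auxin response factor that promotes the maturation of flowers, had the largest ratio between stages of these 27. Its widest peak spanned 3567 bp at S0 and 4717 bp at S2, and then 2615 and 2347 bp at S4 and S8. At S4 and S8 the region was split into 2 peaks, which together covered 4554 and 4425 bp, so the acetylated length changed less than the width of the widest peak. The fold enrichment was 8.89, 5.65, 5.86 and 7.36, above the 98th percentile of its list at each stage. The related ARF2 spanned 2308, 2238, 2616 and 2306 bp.

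Several receptor kinases were among the all-stage loci. AT5G01890, annotated as a leucine-rich receptor-like kinase, spanned 3234, 3151, 3247 and 3156 bp in stage order. BRI1, the receptor of brassinosteroids, spanned 2460, 2233, 2575 and 2670 bp. HSL1, named for its likeness to the peptide receptor HAESA, spanned 2768, 2506, 2458 and 2687 bp. AT1G75640, of the same annotation as BAM1, was widest at S4, with 2276, 2473, 3251 and 2323 bp. At S0, S2 and S8 it held 2 peaks, which together covered 2981, 3225 and 3062 bp of the locus. Besides the kinases, LRX3, a leucine-rich repeat extensin of the cell wall, and AT4G18670, annotated as a leucine-rich repeat protein, carried domains of 2513 to 2635 bp and 2722 to 2971 bp.

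Other all-stage loci ranged from variable to nearly constant widths. QKY, a C2-domain protein that acts in organ shape, spanned 3500 bp at S0, 2582 and 2627 bp at S2 and S4, and 2038 bp at S8, where it was close to the limit. OXS2, a CCCH zinc finger protein, spanned 3328, 3243, 2752 and 2646 bp and held 2 peaks at S4 and S8. TIC, a regulator of the circadian clock, spanned 2807, 2378, 3148 and 2744 bp, which left the distal part of its 6803 bp gene outside the domain. AT5G19090, annotated for heavy metal transport, spanned 2486 to 2664 bp and had the highest fold enrichment of the loci named here at S0 (11.4), with 6.35, 5.78 and 9.38 later. The subtilases SLP2, ARA12 and AT3G14067 stayed within 2226 and 2521 bp at every stage, RGA1 within 2071 and 2237 bp, and MYC3 within 2086 and 2222 bp.

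**Figure D2:**
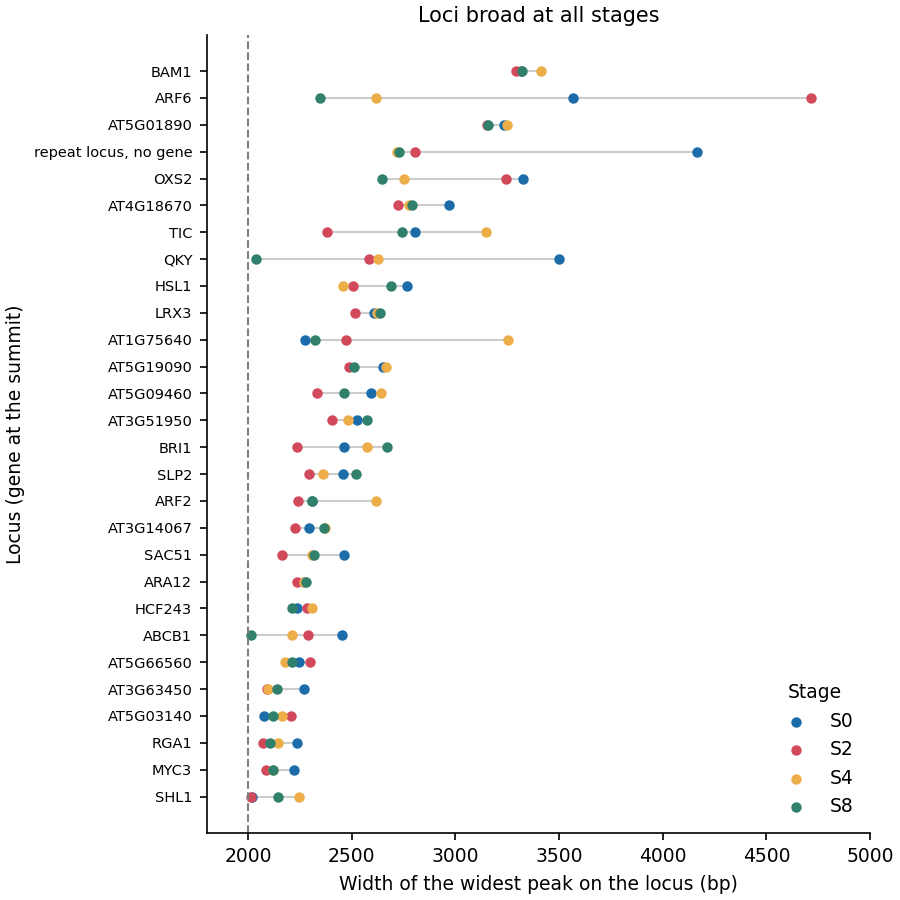
Width (bp) of the widest peak at S0, S2, S4 and S8 on each of the 28 loci broad at all stages, ordered by mean width and named by the gene at the summit. Points are stages, grey lines join the narrowest and the widest, and the dashed line is the 2000 bp limit. Most loci show close points, while ARF6, QKY and the repeated locus spread over more than 1000 bp.

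Loci broad at 1 stage included a few in which the width of the widest peak differed strongly between stages. At S8, PSAD-2, a subunit of photosystem I, lay under a domain of 3378 bp that also covered AT1G03140 and AT1G03150. The same interval held 2 peaks at S0, S2 and S4, of which the widest spanned 1569, 1344 and 1484 bp. Together these covered 2463, 2019 and 2089 bp of the locus. AT5G05140, annotated as a TFIIS-type transcription elongation factor, also went from 2 peaks (widest 1233, 1165 and 1314 bp) to 1 of 2838 bp at S8. The 2 peaks together covered 1956, 2004 and 2398 bp of its locus at S0, S2 and S4. AT3G02250, an O-fucosyltransferase family gene, spanned 1037 bp at S0, had no peak at S2, and reached 1144 bp at S4 and 2797 bp at S8. AT5G56040, a receptor-like kinase gene, spanned 283 bp at S0, 1059 bp at S2 and 2512 bp at S8 and had no peak at S4. AT3G17712 spanned 1099, 1429 and 2292 bp at S0, S4 and S8 without a peak at S2, with 40.6% of the words of the locus repeated. At S0 it held 2 peaks, which together covered 1522 bp of the locus.

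At S0 only, AT4G38550, a phospholipase-like gene, spanned 2998 bp against 1007, 1200 and 1034 bp later. At S2 and S4 it held 2 peaks, which together covered 1945 and 1913 bp of the locus. AT4G36180, a receptor-like kinase gene, spanned 2863 bp at S0 and 1501 to 1586 bp later, and its S0 domain reached into the divergent neighbour AT4G36190. At S2 this locus held 2 peaks, which together covered 2100 bp of it. AT2G07981 spanned 2985 bp at S0, but it lay on repeated sequence (75.1% of its words). At S2 only, AT5G57710, with a double Clp-N motif, spanned 2387 bp against 1778 to 1858 bp at the other stages. AT1G27210, an ARM repeat gene, spanned 2308 bp at S2. Elsewhere it held 2 peaks, the widest of 1397 to 1458 bp, which together covered 2164 to 2201 bp of the locus. HAM2, a GRAS regulator of shoot meristems, spanned 2129 bp at S2 and 1343, 1283 and 1707 bp at S0, S4 and S8. At S0 and S4 it held 2 peaks, which together covered 2036 and 1544 bp of the locus. At S4 only, AT2G01070, annotated for a transmembrane receptor family, spanned 2769 bp and 927 to 1915 bp elsewhere. SKIP1, annotated as a partner of SKP1, spanned 2724 bp at S4, where 2 or 3 peaks lay at the other stages, the widest of 785 to 1576 bp. Together these covered 1978, 2251 and 2442 bp of the locus at S0, S2 and S8. GRF1, a growth-regulating factor, spanned 2546 bp at S4 and 1592 to 1673 bp at the other stages. At S0 and S8 it held 2 peaks, which together covered 2276 and 2366 bp of the locus.

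Among 49 floral regulators with a peak, 5 carried the summit of a broad domain (10.2%, 95% Wilson interval 4.44 to 21.8%), beside 206 of 12033 protein-coding genes with a summit (1.71%). The median gene length was 3559 bp for the 49 and 2520 bp for the 12033. None of the 5 was broad at all 4 stages. MP, the auxin response factor that starts floral primordia, spanned 1932, 2324, 2447 and 2482 bp in stage order, so S0 was below the limit and the later stages above it. ETT, an auxin response factor that patterns the gynoecium, was widest early, with 2278, 2296, 1804 and 1446 bp. CLV1, the receptor kinase that limits the stem cell population, spanned 2015, 2473, 1574 and 1748 bp. PHB, an HD-ZIP III factor of the adaxial side of organs, spanned 1587, 2024, 1963 and 1960 bp, within 40 bp of the limit from S2 on.

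AP1, which specifies the floral meristem, sepals and petals, had the largest ratio between stages among these 5. Its peak spanned 745 bp at S0, was intermediate at S2 and S4 (1771 and 1440 bp) and reached 2317 bp at S8. The near edge stood at 57, 156, 57 and 56 bp past the TSS, and the far edge at 801, 1926, 1496 and 2372 bp. The fold enrichment was 2.08, 2.25, 2.56 and 3.06, which placed it at the 0.276th, 0.407th, 27.6th and 57.8th percentile of the lists. Its width stood at the 49.7th, 98.5th, 93.9th and 99.5th percentile. The −log10 p at its summit stood at the 22.9th, 35.9th, 73.1st and 90.5th percentile. The transgene carries the AP1 promoter and coding sequence, and the part of its reads in these values was not tested.

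**Figure D3:**
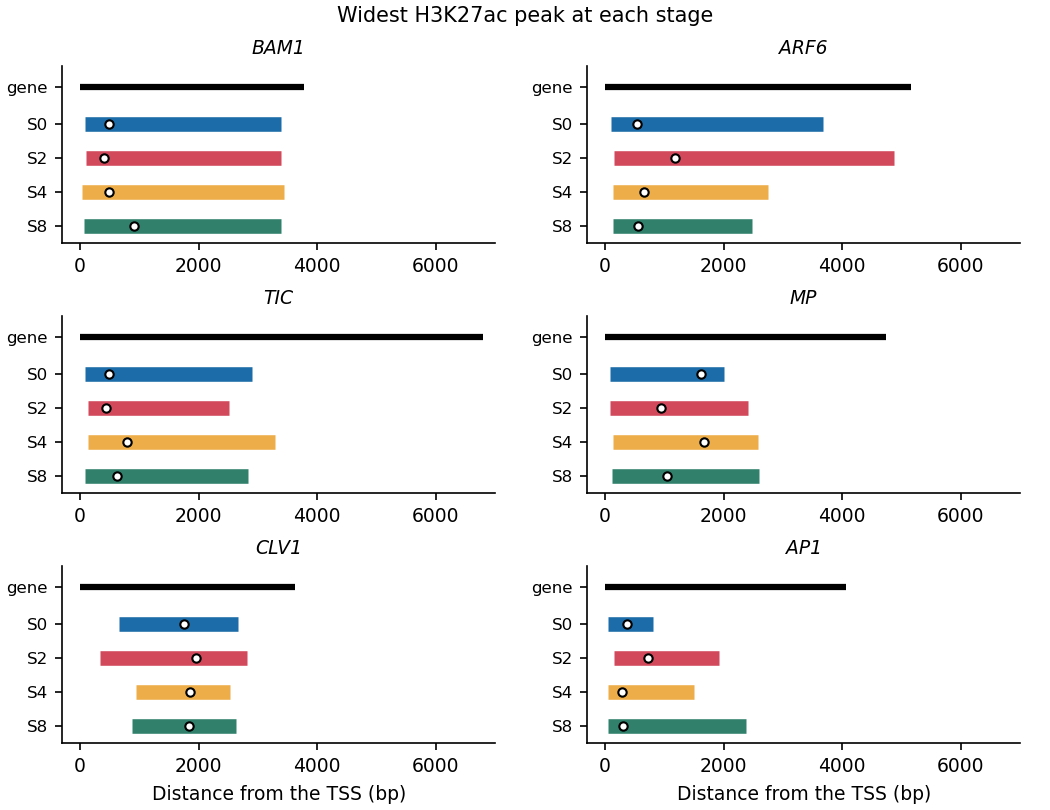
Extent of the widest peak at each stage on 6 genes, as distance from the TSS (bp) along the gene. The black bar is the annotated gene, coloured bars are the peaks at S0, S2, S4 and S8, and white circles are summits. On AP1 the near edge stays between 56 and 156 bp while the far edge lies between 801 and 2372 bp, and on BAM1 both edges stay in place.

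On loci over 1 gene, the position of most domains was alike. Of the 199 loci outside repeated sequence, 143 overlapped 1 protein-coding gene and had their summit in it. The other loci, among them those that reached a neighbouring gene, are not part of the values in this paragraph. The near edge of the widest peak lay past the TSS in 121 of these 143, within 300 bp of the TSS in 114 and over 1000 bp past it in 3. Its median distance past the TSS was 127 bp, with quartiles of 38.5 and 244.5 bp. The far edge stopped a median of 371 bp before the end of the gene and ran past the end in 11 loci. The domain covered a median of 80.9% of the gene, at least 50% in 135 loci, at least 90% in 26, and as little as 33.8%.

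On loci over 1 gene, the far edge differed more between stages than the near edge. This was measured on the 110 of these 143 loci with exactly 1 peak at every stage. The near edge ranged over a median of 100.5 bp between the 4 stages (quartiles 65.3 and 155.8 bp) and the far edge over 421.5 bp (202.8 and 752 bp). The far edge had the larger range in 92 of the 110 loci. In the 87 of them that were not broad at all 4 stages, the medians were 109 and 522 bp. CLV1 was an exception, with a near edge at 658, 342, 951 and 879 bp and a far edge at 2672, 2814, 2524 and 2626 bp. Loci that reached another protein-coding gene were left out, so near edges that moved into a neighbour were not counted. On XXT5, a locus left out, the near edge of the widest peak stood at -19, 56, -1181 and 32 bp from the TSS. Its far edge stood at 1121, 954, 1042 and 1029 bp.

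**Figure D4:**
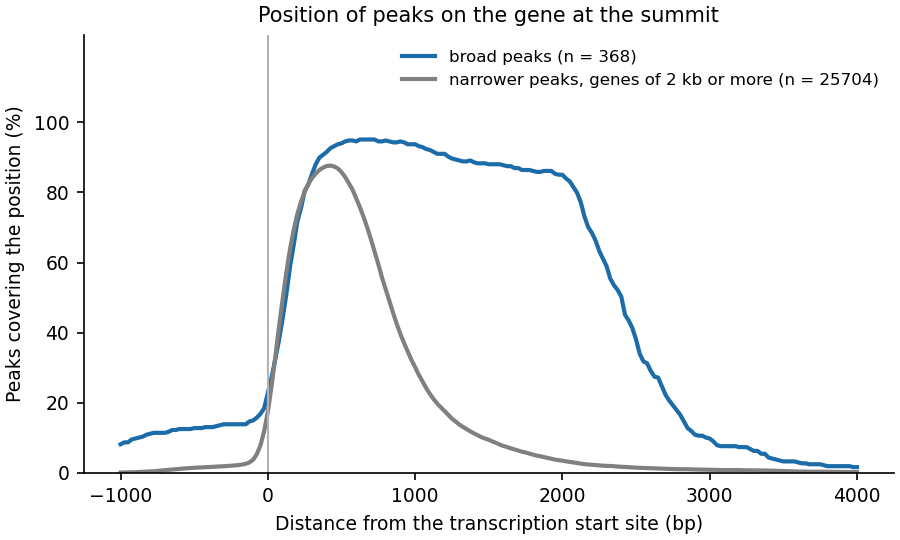
Percent of peaks that cover each position relative to the TSS (bp) of the gene at the summit, for 368 broad peaks outside repeated sequence and 25704 narrower peaks on genes of at least 2 kb. Both rise just past the TSS, to 71.7 and 73.9% at 200 bp, and at 1500 bp they stand at 88.0 and 9.43%. Upstream of the TSS, at -500 bp, 12.8% of the broad and 1.45% of the narrower peaks cover the position. The broad peaks lay on genes of any length, and for the 326 of them on genes of at least 2 kb, a subset added after the data were seen, the values are 69.0% at 200 bp and 90.8% at 1500 bp.

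The summits of broad peaks lay deeper in the gene than those of narrower ones. The median distance from the TSS was 721, 896, 789.5 and 685.5 bp for broad peaks at S0, S2, S4 and S8 and 402, 387, 390 and 390 bp for the others. Summits fell in a coding exon in 80.0 to 88.9% of broad peaks within a gene and in 58.8 to 64.6% of the others. Coding sequence made up 63.7, 74.5, 64.3 and 64.8% of the bases of broad peaks outside repeated sequence, and 49.2, 54.9, 50.7 and 51.9% of narrower peaks. A wide peak can hold more of the gene body, so these positions are not independent of the width that chose the peaks. Fold enrichment was a median of 5.30, 4.26, 4.10 and 4.00 for broad peaks outside repeated sequence and 3.21, 3.07, 2.89 and 2.91 for narrower peaks.

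The gene models under the domains were not used to choose them, and no enrichment test was run on them, so the shares below are a description. A peak of at least 2000 bp inside 1 gene needs a gene of that length, so gene length is not independent of the rule. In stage order, 88.0, 95.2, 86.4 and 88.5% of broad peaks within a gene lay on genes of at least 2 kb. For narrower peaks the shares were 70.5, 68.7, 69.5 and 69.4%. Broad domains lay on longer genes, with a median length of 2857, 2979, 2858.5 and 2936 bp for the gene at the summit, against 2538.5, 2481.5, 2503 and 2507 bp for narrower peaks. The order-statistic 95% intervals of the broad medians were 2658 to 2966, 2852 to 3333, 2590 to 3086 and 2808 to 3110 bp. Length alone did not order the genes, since the share with a broad domain was 0.854% under 2 kb, 2.31% from 2 to 3 kb, 2.46% from 3 to 4 kb, 1.46% from 4 to 5 kb and 0.943% in genes of 5 kb or more.

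Genes with broad domains tended to have fewer introns and longer coding exons than the other genes with a summit. Of the 206 genes, 21.4% had no intron and 40.8% had at most 1, beside 12.2 and 24.5% of the other 11827 genes with a summit. The median longest coding exon was 865.5 bp in the 206 and 444 bp in the others. Among genes of 2 to 5 kb, the share with a broad domain was 7.55% of 424 genes without an intron, 4.98% of 643 with 1, 2.51% of 1236 with 2 to 3, 1.89% of 2596 with 4 to 7 and 0.860% of 2443 with 8 or more. In the same length range the share was 1.05% of 3891 genes whose longest coding exon was under 500 bp and 11.6% of 121 genes with one of at least 2500 bp. The 95% Wilson intervals of these end classes were 0.778 to 1.43% and 7.02 to 18.5%. The median longest coding exon was 2055 bp for the 27 all-stage loci with a summit gene, of which 15 had at most 1 intron, and 674.5 bp for the 110 such loci broad at 1 stage, of which 38 had at most 1. ARF6 and ARF2, with 14 introns each, were all-stage loci of the other kind.

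**Figure D5:**
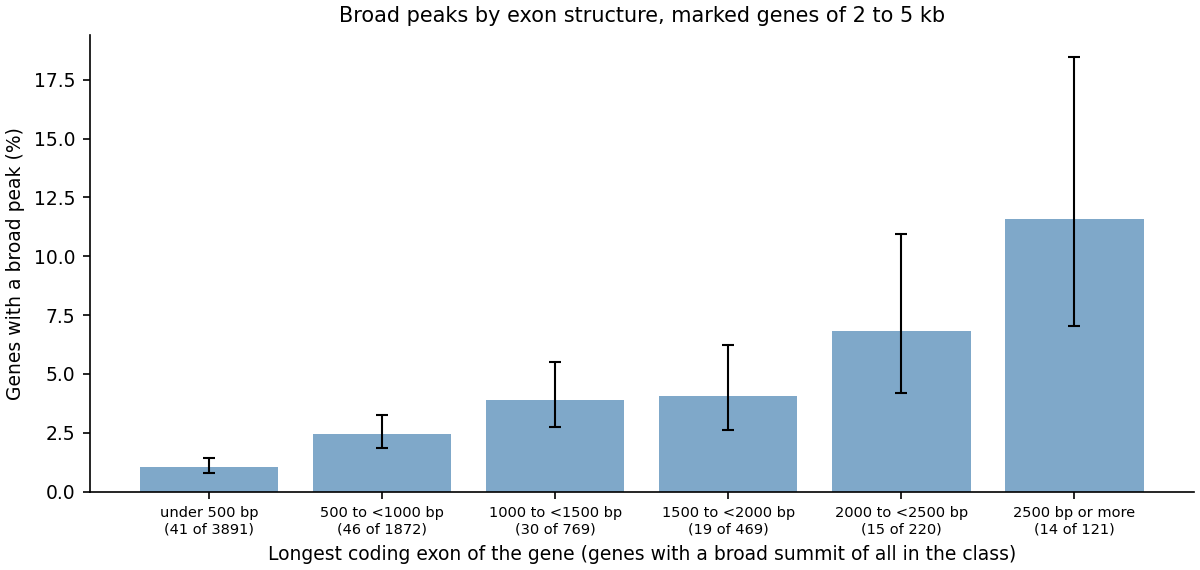
Percent of marked genes of 2 to 5 kb that hold the summit of a broad peak, by the length of their longest coding exon. Bars are shares, error bars 95% Wilson intervals over genes, and counts are given under each bar. The share is 1.05, 2.46, 3.90, 4.05, 6.82 and 11.6% from the shortest to the longest class, and neighbouring intervals overlap except between the 2 lowest classes.

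In all, the loci overlapped 261 protein-coding genes, 210 of them with at least 50% of the gene and 116 with the TSS. The loci overlapped 1 protein-coding gene in 149 cases, 2 in 51, 3 in 4 and none in 9. In 136 loci no TSS of a protein-coding gene lay inside, 40 held 1 and 37 held more than 1 (17.4%). With peaks of a list within 500 bp joined, 798 genes were overlapped and 37.3% of loci held more than 1 TSS, and with a limit of 2500 bp these were 66 genes and 10% of loci. Of those 37, the TSSs formed a divergent pair in 23, a convergent pair in 8 and a pair on the same strand in 4, and 2 loci held 3 or more. Loci with several TSSs made up 27 of the 113 loci broad at 1 stage, 6 of 39 broad at 2, 4 of 33 broad at 3 and 0 of 28 broad at all 4. Examples were AT2G01070 with the divergent AT2G01060 and XXT5, a xyloglucan xylosyltransferase, with the divergent AT1G74370. The XXT5 locus spanned 2224 bp at S4 and held 2 peaks at each other stage, the widest of 899 to 1141 bp.

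A gene is counted here as carrying a domain where it held the summit of a broad peak, which 1.71% of all genes with a summit did, and no difference between gene lists was tested. Transcription factors carried one in 25 of 735 genes (3.40%, 95% Wilson interval 2.31 to 4.97%), 8 of whose loci were broad at all 4 stages. This list was matched by words in the annotated product and does not hold MP, ETT or GRF1. Protein kinases and phosphatases carried one in 23 of 880 genes (2.61%, 1.75 to 3.89%). The locus of AT3G13690, a kinase of this list, was the longest after ARF6 outside repeated sequence, with 1373, 1702, 2291 and 4259 bp in stage order and 2 peaks at S0 and S4. The 2 peaks together covered 1997 bp of the locus at S0 and 3981 bp at S4. Genes of translation carried a domain in 3 of 367 cases (0.817%). Of these, AT3G53430, a ribosomal protein L11 gene, was broad only at S4, with 2361 bp against 924 to 1224 bp elsewhere. At the other stages it held 2 peaks, which together covered 1722 to 1874 bp of the locus. AT5G60680, which matched this list as an initiation factor but is annotated for transcription and as a protein of unknown function, was broad at S4 only, with 2319 bp.

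None of the 63 histone genes, the 81 genes of chromatin and DNA methylation or the 152 chaperone genes with a summit held that of a broad peak, which allows shares of up to 5.75, 4.53 and 2.46% by the 95% Wilson interval. Ubiquitin and proteasome genes had 5 of 456 (1.1%), among them the auxin receptor AFB3, which spanned 1986, 2160, 1890 and 2209 bp. AT1G70360, an F-box gene of this list, spanned 2257 bp at S0 and 1359 to 1995 bp later. RNA binding and splicing genes had 4 of 286 (1.40%), with AT3G63450, an RNA-recognition motif gene, broad at every stage (2091 to 2270 bp). AT1G55360, which the list holds as a tRNA-splicing ligase, spanned 2300, 1985, 2447 and 2361 bp. Membrane transport genes had 7 of 395 (1.77%), with AT5G13760, a choline transporter family gene, at 2536 bp at S8 and 1277 to 1566 bp before. AT2G31150, which entered this list as an ATPase, spanned 2181 bp at S0 and 2253 bp at S4 and had no peak at S8.

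Cytoskeleton and vesicle traffic genes had 4 of 235 (1.70%), 2 of them formins, which nucleate actin filaments. The formin AT2G43800 spanned 2916, 2729, 2645 and 1792 bp and the formin AT5G48360 2032, 1803, 1839 and 1958 bp. Photosynthesis genes had 2 of 71 (2.82%), both broad at S8 only, PSAD-2 and PSBW, a photosystem II subunit. PSBW spanned 1852, 755, 1043 and 2087 bp, and its S8 domain reached into the neighbour LGT5. Cell wall genes had 2 of 111 (1.8%), XXT5 and the fasciclin-like FLA18, which spanned 2062 bp at S0 and 1564 to 1861 bp later.

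Further families were looked up after the loci were seen, so their counts are no independent evidence. Leucine-rich repeat proteins and receptor-like kinases carried a domain in 19 of 141 genes (13.5%), and their median widest peak was 1219 bp, beside 845 bp for all genes with a summit. BAM2, the close relative of BAM1, was broad at S2 and S8 (3189 and 3311 bp) and not at S0 and S4 (1551 and 1594 bp). At S0 and S4 it held 2 peaks, of which the widest started 1876 and 1761 bp past the TSS. HSL2, a receptor of floral organ abscission, spanned 2357, 1924, 2059 and 1888 bp. GRAS regulators carried a domain in 6 of 27 genes: RGA1, SCL8, HAM1, HAM2, HAM3 and SCR, the root and shoot patterning factor SCARECROW, which spanned 2341, 2044, 2107 and 1958 bp. Auxin response factors did in 5 of 15 genes, ARF6, ARF2, MP, ETT and ARF18, which spanned 2996, 1623, 2288 and 2782 bp. Subtilases, secreted serine proteases, did in 4 of 12 genes and armadillo repeat proteins in 7 of 97. The median gene length of these families was 3365, 2381, 4227, 3057.5 and 3692 bp in the order given, beside 2520 bp for all genes with a summit.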

How the data were processed

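ChIP-seq reads were aligned by the authors with Bowtie 1.1.2 to TAIR10. The settings kept 1 place for reads with several and dropped reads with more places than a set limit. Reads were then deduplicated with Picard 2.60, and peaks were called with MACS2 2.1.0 on pooled replicates, with a filter on reproducibility between replicates. The authors deposited, per peak, a score, a fold enrichment (a ratio of pileup to control at the summit), a −log10 p and a −log10 q, the last of which was not used here. Widths and fold enrichments are listed by stage as a description. No column was tested between stages or taken as an amount of acetylation, because depth is not given in the sources used here and replicates were pooled. Starts were raised by 1 to count from 1.

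Peaks of at least 2000 bp were kept and 14 peaks on rRNA genes left out. RefSeq TAIR10.1, whose nuclear sequence is that of TAIR10, gave 27444 protein-coding genes, exons of the transcript with the longest coding sequence, and all sequences printed. The gene at a summit was the protein-coding gene containing it, with the nearest TSS where several did. Members, gene lists and rules were chosen with earlier results of these data known. The loci named were the 12 widest broad at all 4 stages, the 3 widest broad only at each stage, the 5 widest lacking a peak at a stage, those on floral regulators and the 2 widest of each other list. Others were chosen after their values were seen. Lists other than floral regulators and auxin response factors were matched by words in the annotated product, which were narrowed after unrelated matches were seen. The symbols SEP1, SEP2 and ARF1 were not matched. Intervals are 95% Wilson intervals or order-statistic intervals of medians. Python 3.11.15, NumPy 2.4.6, pandas 2.3.3, SciPy 1.17.1 and matplotlib 3.10.9 were used, merging was checked against bedtools 2.31.1, and the building of loci was tested on simulated peaks. Alternatives covered joining, strength, repeats, width limits, equal numbers and gene definitions, and leaving out each stage's list, which was added after the data were seen.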

Additional observations from a re-analysis of the deposited data

How the results depend on the processing

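Leaving out repeated sequence, or the weaker 50% of each list, moved none of the counts of peaks, loci, all-stage loci and genes by over 1.5 times, nor the share of loci with several TSSs or the median gene length beyond its interval. Joining peaks within 500 bp gave 939 broad peaks, 480 loci, 75 all-stage loci, 798 genes, 37.3% of loci with more than 1 TSS and a median gene length of 2565 bp, against 403, 213, 28, 261, 17.4% and 2880 bp. A limit of 2500 bp gave 110, 60, 6, 66, 10% and 3593 bp. With the 64 widest peaks of each list there were 137 loci, 18 in the set at all 4 stages, 161 genes and 12.4% with more than 1 TSS. All-stage loci numbered 98 where 1500 bp sufficed at a stage, 44 where all peaks of a stage together had to cover 2000 bp, and 49 with the S2 list left out, which was tried after the data were seen, against 28 to 36 with any other list left out. Counting genes by the TSS gave 116. The cause was not tested beyond what these settings change by construction. No paired analysis was possible because the lists hold pooled values, and for the same reason no replicate could be left out. Depth is unknown, so a narrow or split peak in a shorter list was not told apart from a shallower library.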
